A study of Mus musculus with 4 samples.

Results

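Short-range contacts are the pairs of restriction fragments less than 50 kb apart in the 5C data of a region of mouse chromosome 3 (mm9) that holds the Epidermal Differentiation Complex (EDC). They were chosen by the deposited distance alone, which is the gap between the facing ends of 2 fragments, rounded to 1 kb. Among 111588 contacts listed in any library, 3318 were short, and 1337 of the 23395 contacts listed in all 4 libraries were short. By the labels, the libraries came from primary cells of newborn C57BL/6 mice, with 2 libraries of epidermal keratinocytes (KCs) and 2 of thymocytes (TCs, the total T cell population of crushed thymi), and no treatment or allele separated the groups. KCs had been plated for 15 hours at 32 °C in low calcium medium, whereas TCs were not plated, so cell type and plating cannot be told apart. Both cell types were fixed in 1% formaldehyde for 10 minutes. The labels do not say whether the libraries of 1 cell type came from different animals, so tests over libraries measure the spread between these libraries only. No expression was measured in these libraries, so the cell types could not be checked against marker genes.

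In 5C, chromatin is crosslinked, cut with HindIII and religated, and probes annealed to the fragment ends are joined where 2 fragments were ligated. Contact frequency falls with genomic distance because a chromatin fibre brings near sequences together more often than far ones, and the steepness of that fall is a common measure of local chromatin folding. Topologically Associating Domains (TADs) are stretches within which contacts are more frequent than across their borders. The EDC carries the genes of the cornified envelope, the protein shell of dead surface keratinocytes, between clusters of S100 calcium-binding protein genes. Genes expressed in many cell types flank it on both sides.

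A few designed ligation products are shown to make the unit of measurement visible, since the results turn on such joined probe pairs. Each is the 30 genomic bases of a forward probe followed by the 30 bases of a reverse probe, without the amplification tails, and the capitals mark the HindIII site rebuilt at the junction. The forward bases equal the mm9 reference and the reverse bases equal its reverse complement in every product shown. The probe lay at the end with the higher coordinate in 709 of the 710 fragments that had one, so a product joined these ends of both fragments, also for neighbouring fragments. The first pair below has the largest difference between cell types among the called contacts, and the next the highest level for its distance. A further 2 share the reverse fragment REV_1542 near Pogz, and the last 3 join fragments over or near genes more than 10 kb apart.
FOR_1456 with REV_1455: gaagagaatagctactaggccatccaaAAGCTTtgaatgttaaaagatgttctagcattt
FOR_643 with REV_644: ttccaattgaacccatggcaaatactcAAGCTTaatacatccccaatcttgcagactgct
FOR_1541 with REV_1542: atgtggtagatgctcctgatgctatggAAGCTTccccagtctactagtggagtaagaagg
FOR_1543 with REV_1542: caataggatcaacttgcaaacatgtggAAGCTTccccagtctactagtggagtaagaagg
FOR_1660 with REV_1654: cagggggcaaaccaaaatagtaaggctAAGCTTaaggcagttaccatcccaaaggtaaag
FOR_1151 with REV_1143: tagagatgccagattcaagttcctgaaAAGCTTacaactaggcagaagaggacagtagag
FOR_14 with REV_8: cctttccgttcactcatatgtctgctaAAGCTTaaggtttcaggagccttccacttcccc

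Library 1 of the KCs stood apart from the other libraries. It listed 3010 of the 3355 pairs under 50 kb that its fragments allow (89.7%), against 2085 of 3376 (61.8%) in KC library 2. The TC libraries listed 1898 of 3414 (55.6%) and 2059 of 3271 (62.9%). Of the 884 short contacts that a single library listed, 796 were in KC library 1. After adjustment for distance, Pearson's r across the 1337 shared contacts was 0.32 between the KC libraries and 0.59 between the TC libraries, while KC library 2 reached 0.50 and 0.49 with the TC libraries. These correlations are across contacts that share fragments and are given as a description. The main results that rest on KC library 1 are therefore also given without it. For contacts of 50 kb or more and for the split by GC content this was not computed. Read numbers are not used here, so no counting error stands beside these values.

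The data first showed a difference between the cell types that lay in the nearest contacts. The division at 10 kb was taken from earlier results of these data, so comparisons on either side of it are not independent of that choice. Under 10 kb, the mean log2 corrected 5C frequency of 388 contacts was 12.37 and 11.95 in KCs and 13.72 and 14.17 in TCs. The groups did not overlap, with a difference of -1.79 (KCs minus TCs; 12.16 ± 0.29 against 13.95 ± 0.32, SD, n = 2 libraries each), that is 3.45-fold more frequent contacts in TCs as deposited. The difference was -0.71 with the libraries scaled to the same total, -1.15 without neighbouring fragments, and -0.0773 with both changes. The two-sided exact permutation test over libraries gave p = 0.33, the smallest p that 2 libraries against 2 allow. Under 10 kb, 302 contacts (77.8%) were higher in both TC libraries than in both KC libraries, against 12.4% of all contacts listed in all 4 libraries, and 1 was higher in both KC libraries, against 38.2% of all. From 10 to 50 kb, 949 contacts had means of 10.44 and 9.83 in KCs and 9.86 and 10.05 in TCs. Here the groups overlapped (difference 0.18, exact permutation p = 1), and without KC library 1 the difference was -0.13. Of these, 223 (23.5%) were higher in both KC libraries, against 38.2% of all contacts, and 151 (15.9%) in both TC libraries, against 12.4%. Among the 223 contacts from 40 to 50 kb, 84 (37.7%) were higher in both KC libraries and 12 (5.38%) in both TC libraries. Over all 1337 short contacts the mean was 11.001 and 10.45 in KCs and 10.98 and 11.25 in TCs, which also overlapped (difference -0.39, exact permutation p = 0.667). The libraries were not scaled to each other, and these levels depend on the scale. The median difference over all 23395 contacts was 0.58 in favour of KCs. With the libraries scaled to the same median, the difference over all short contacts was -0.79, and with the same total it was 0.68 in favour of KCs.

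Among the nearest contacts, the gap was wider in neighbouring fragments, which share a HindIII site, than in the others. Their median corrected frequency over 147 pairs was 10980 and 9353 in KCs and 59140 and 76766 in TCs. Single pairs ranged from 459 to 63684 and from 343 to 60352 in the KC libraries, and from 16456 to 235177 and from 14991 to 256106 in the TC libraries. TC libraries were higher in 145 of the 147 pairs without overlap, and no pair was higher in both KC libraries. The mean log2 difference was -2.82, a 7.08-fold excess in TCs. The other 105 contacts under 5 kb had medians of 4984 and 3490 in KCs and 9282 and 16327 in TCs, a 3.39-fold excess. Neighbouring fragments therefore exceeded other contacts under 5 kb by 2.15-fold and 2.69-fold in KCs, and by 5.38-fold and 4.68-fold in TCs, and these ratios did not overlap (log2 difference -1.06, exact permutation p = 0.33). All neighbouring fragments lay at 0 kb, whereas only 13 of the other 105 contacts did. The part of distance in this gap was not tested.

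**Figure D1:**
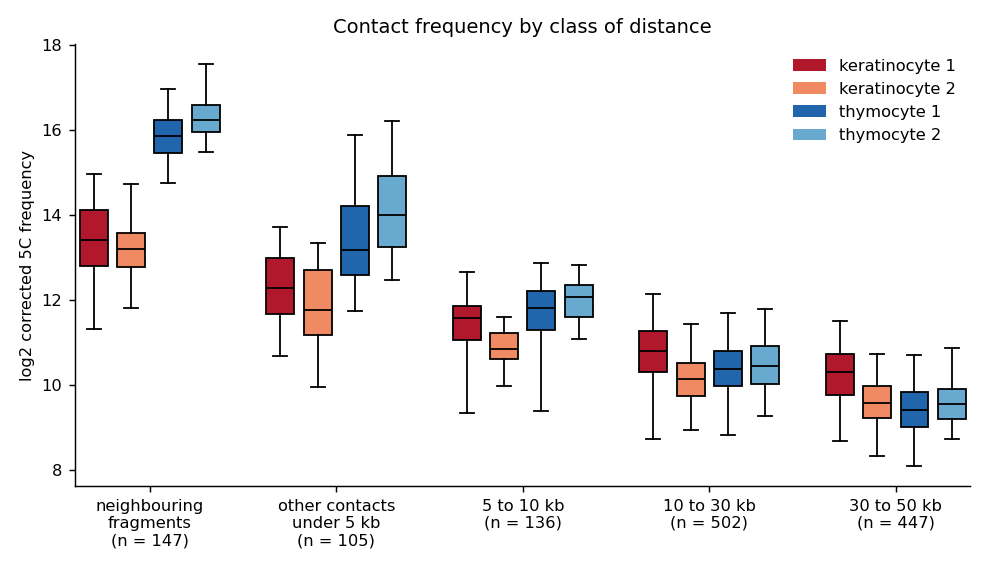
Boxes give the log2 corrected 5C frequency of the short contacts listed in all 4 libraries, by class of distance, for keratinocyte (red, orange) and thymocyte (blue, light blue) libraries; the line is the median, the box the quartiles and the whiskers the 5th and 95th percentiles over contacts. Thymocyte boxes lie above keratinocyte boxes for neighbouring fragments (medians 59140 and 76766 against 10980 and 9353). From 10 kb on, the mean log2 frequencies of the cell types overlap in each step of 5 kb. The medians of both keratinocyte libraries lie above those of both thymocyte libraries in each such step from 30 to 50 kb.

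In steps of 5 kb, frequency was lower in the last step than in the first in all 4 libraries, with a larger fall in TCs. The fall was not even, since KC library 1 went from 10.38 at 20-25 kb to 10.55 at 25-30 kb. In the first step the mean log2 frequency of 252 contacts was 12.91 and 12.55 in KCs and 14.85 and 15.37 in TCs, a 5.21-fold excess in TCs. From 5 to 10 kb (136 contacts) it was 11.37 and 10.85 in KCs against 11.64 and 11.95 in TCs, a 1.61-fold excess, and the libraries still did not overlap. From 15 to 25 kb the fold between cell types was 1.01 in both steps. In the last step, from 45 to 50 kb (105 contacts), KC library 1 was highest at 10.02, and KC library 2 at 9.21 lay between the TC libraries at 9.02 and 9.31. By medians, both KC libraries lay above both TC libraries in each step from 30 to 50 kb (1077 and 647 against 518 and 603 in the last). Between the first and the last step the frequency thus fell 7.40-fold and 10.1-fold in KCs, and 56.8-fold and 66.6-fold in TCs. Leaving out the nearest contacts, the fall from 5-10 kb to 45-50 kb was 2.54-fold and 3.12-fold in KCs and 6.15-fold and 6.21-fold in TCs. Median frequencies just inside the 50 kb limit (48 to 49 kb, 47 contacts) were 1142, 664, 520 and 593 in KC libraries 1 and 2 and TC libraries 1 and 2, and just outside it (50 to 51 kb, 49 contacts) 1079, 649, 575 and 613.

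**Figure D2:**
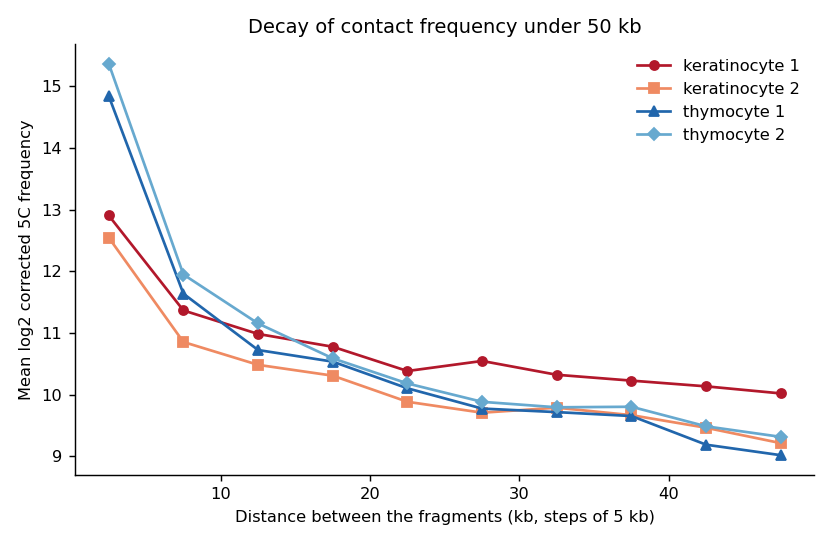
Lines join the mean log2 corrected 5C frequency in steps of 5 kb between 0 and 50 kb for each library, over the contacts listed in all 4. The thymocyte lines start at 14.85 and 15.37, above the keratinocyte lines at 12.91 and 12.55, and meet those of the keratinocytes between 10 and 20 kb.

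The slope of log2 frequency on log2 distance, over the 1177 contacts with a distance of at least 1 kb, was -0.47 and -0.53 in KCs and -0.92 and -1.02 in TCs. The slopes differed by 0.47 (-0.50 ± 0.04 against -0.97 ± 0.07, SD, n = 2 libraries each; exact permutation p = 0.33), and the difference stayed between 0.42 and 0.52 when any 1 library was left out. The shallower KC slope was present in each TAD with enough contacts. It was -0.56 ± 0.06 in TAD1, -0.43 ± 0.10 in TAD2, -0.42 ± 0.03 in TAD3, -0.51 ± 0.03 in TAD4, -0.53 ± 0.02 in TAD6 and -0.42 ± 0.10 in TAD7. Mean TC slopes of the same TADs lay between -0.91 and -1.004, and those of single TC libraries between -0.84 (TAD6) and -1.07 (TAD3). In no TAD did the slopes of the KC and TC libraries overlap. Among the gene clusters with at least 30 such contacts, the slope difference was largest in the Rptn to Tchhl1 genes (0.63, 35 contacts), which encode fused-type S100 proteins of hair and epidermis, and smallest in the Pogz to Pi4kb genes (0.39, 100 contacts), and no test between clusters was made.

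Short contacts held 44.2% and 49.8% of the summed frequency of KCs and 81.8% and 86.3% of that of TCs, over the 23395 contacts listed in all 4 libraries. The groups did not overlap (47.0 ± 4.0% against 84.1 ± 3.2%, SD, n = 2 libraries each; exact permutation p = 0.33). Neighbouring fragments alone held 18.6% and 23.9% in KCs and 60.4% and 64.4% in TCs. Without neighbouring fragments among the short contacts the difference turned to 4.13 percentage points in favour of KCs. With contacts of 5 kb or more it turned to 9.56 points. The total still held the contacts left out, so the large part of neighbouring fragments in the TC total lowers what is left for TCs. Shares of the remaining contacts alone were not computed.

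A test of each contact placed the calls at the same distances. With limma on log2 frequency over all 23395 contacts (Benjamini-Hochberg), 107 short contacts (8.00%) were lower in KCs at an adjusted p under 0.05, against 0.457% of all contacts, and these were all the contacts called lower in KCs at any distance. None of the 1337 was called higher in KCs by limma, against 0.0299% of all; at an unadjusted p under 0.05, 277 were lower and 29 higher. Neighbouring fragments made up 91 of the 107 calls (61.9% of the 147 pairs), other contacts under 10 kb made up 16, and none of the 949 contacts from 10 to 50 kb was called. These counts changed with the libraries and the fit. Without KC library 1 and without KC library 2 the count was 0 in both cases, where the spread came from the TC libraries alone and the lone KC library was assumed to vary like them (365 and 288 were lower at an unadjusted p under 0.05). Without TC library 1 it was 173, against 0.748% of all contacts, and without a trend of the variance on the level it was 0. With the libraries scaled to the same total, 411 short contacts (30.7%) were higher in KCs, against 34% of all, and 124 (9.27%) were lower, against 0.581% of all. The median difference over all contacts was then 1.66 in favour of KCs, and 0.18 with the libraries scaled to the same median, where no short contact was called.

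Among the called contacts the largest difference was that of the neighbouring fragments FOR_1456 (chr3:94336601-94339317, in an intron of Snx27) and REV_1455 (chr3:94334345-94336600, over an exon of Snx27). Snx27 encodes a sorting nexin that returns membrane proteins from endosomes to the cell surface. The corrected frequency was 459 and 343 in KCs and 34438 and 22711 in TCs. The groups did not overlap, and the log2 difference was -6.14 ± 0.52 (SE; limma adjusted p = 0.00283, 70.5-fold). For its distance the pair lay at -4.06 and -4.13 log2 units from the library mean in KCs, and at 0.23 and -0.90 in TCs. The next contacts, FOR_1022 with REV_1021 and FOR_1020 with REV_1019, are also neighbouring fragments and lie in TAD4 outside genes, with cornulin (Crnn), a fused-type S100 protein of squamous epithelia, as the nearest protein-coding gene. FOR_1022 with REV_1021 (chr3:92932926-92939972 in all) was at 1891 and 4495 in KCs and at 48331 and 90913 in TCs (log2 difference -4.51 ± 0.57, limma adjusted p = 0.0170). FOR_1020 with REV_1019 (chr3:92928281-92932925 in all) was at 4892 and 7627 in KCs and at 121978 and 124190 in TCs (-4.33 ± 0.47, limma adjusted p = 0.0159). In both pairs every TC library lay above every KC library.

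In the other direction no contact passed the test. The 3 largest differences without overlap are given as a description. FOR_72 over an exon of Gatad2b, a subunit of the NuRD chromatin remodelling complex, with REV_59 outside genes 19 kb away was at 1425 and 845 in KCs and at 9.78 and 617 in TCs. FOR_636 with REV_646 in the gene-poor TAD2, 9 kb apart, was at 2397 and 1564 in KCs and at 462 and 54.0 in TCs. FOR_1664 over an exon of Gabpb2 with REV_1672, which holds the start sites of Cdc42se1 and Mllt11, was 29 kb apart, with 1698 and 936 in KCs and 17.1 and 780 in TCs. In 2 of the 3, TC library 1 alone was far below the other libraries, which lay within 617 to 1698.

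Short contacts also varied along the locus when distance was held constant. Distance-adjusted levels are the log2 frequency minus the mean of the same library in the same 5 kb step, so they do not depend on the scale of a library. They are relative to that mean, so higher levels in some regions go with lower levels in others. The SD over the 1337 contacts was 1.07 and 1.00 in KCs and 1.09 and 0.91 in TCs. At a single contact, KC libraries were both higher than both TC libraries in 22.4% and both lower in 22.9% of contacts.

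By TAD, KCs had higher distance-adjusted levels at both ends of the locus and lower ones in its centre. In TAD7, which holds broadly expressed genes such as Setdb1 (a histone H3 lysine 9 methyltransferase), the mean of 114 contacts was 0.74 and 0.46 in KCs and 0.09 and 0.12 in TCs. In TAD1, with broadly expressed genes and the first S100 genes, the mean of 349 contacts was 0.30 and 0.18 in KCs and -0.04 and -0.03 in TCs. TAD3, which holds the Sprr and Lce1 genes of the cornified envelope, had -0.36 and -0.22 in KCs and -0.03 and -0.03 in TCs over 205 contacts. TAD4, with the Lce3 genes and the filaggrin group, had -0.34 and -0.24 in KCs and 0.08 and 0.11 in TCs over 341 contacts. In these 4 TADs the libraries of KCs and TCs did not overlap, with differences of 0.50 in TAD7, 0.27 in TAD1, -0.26 in TAD3 and -0.39 in TAD4 (each exact permutation p = 0.33). Without KC library 1 the differences were 0.36, 0.21, -0.19 and -0.34 in the same order.

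The remaining TADs differed less or held few contacts. TAD6, from the Them4 gene region to Pi4kb, was at 0.06 and 0.05 in KCs and -0.04 and -0.09 in TCs over 223 contacts. The gene-poor TAD2 was at -0.26 and -0.02 in KCs and -0.06 and -0.28 in TCs over 75 contacts and overlapped. TAD5 had only 4 short contacts listed in all 4 libraries, at 0.23 and 0.14 in KCs and -0.70 and -0.41 in TCs. Over the 6 TADs with at least 10 contacts, the SD of the levels was 0.44 and 0.26 in KCs and 0.07 and 0.15 in TCs, so TADs differed more from each other in KCs (exact permutation p = 0.33; difference 0.24, and 0.16 without KC library 1).

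**Figure D3:**
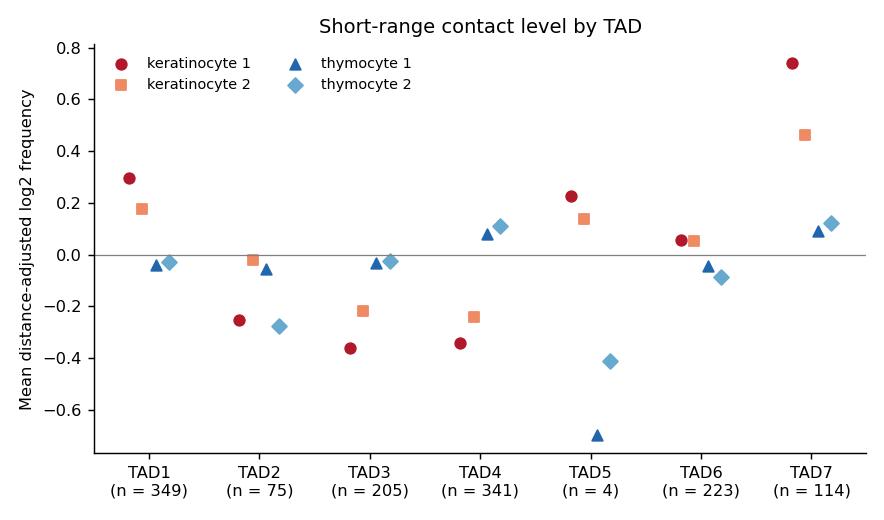
Points give the mean distance-adjusted log2 frequency of the short contacts with both fragments in a TAD, 1 point per library, with the number of contacts under each TAD and 0 as the mean of the library at that distance. Keratinocyte points (red, orange) lie above thymocyte points in TAD1, TAD6 and TAD7 and below them in TAD3 and TAD4, while TAD5 rests on 4 contacts.

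Neighbouring fragments were higher in TCs in every TAD measured, from 5.72-fold in TAD1 to 9.87-fold in TAD4. Other contacts under 10 kb were also higher in TCs, from 1.48-fold in TAD7, where the libraries overlapped, to 3.11-fold in TAD3. From 10 to 50 kb the TC over KC fold was 1.11 in TAD4 and 1.06 in TAD3, but 0.755 in TAD1 and 0.589 in TAD7. Without KC library 1 these folds were 1.31, 1.25, 0.982 and 0.824 in the same order. At this distance only TAD7 had libraries that did not overlap, with mean log2 frequencies of 11.31 and 10.34 in KCs and 9.99 and 10.14 in TCs over 86 contacts. Median frequencies there were 2489 and 1228 in KCs and 1033 and 1097 in TCs. Leaving out neighbouring fragments, the distance-adjusted differences were 0.26 in TAD1, -0.30 in TAD3, -0.36 in TAD4, 0.13 in TAD6 and 0.56 in TAD7.

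Contacts of 50 kb or more within the same TADs, adjusted in steps of 50 kb, gave a partly different picture. Their levels also did not overlap in TAD1 (difference 0.07, 1597 contacts), TAD4 (-0.22, 1660 contacts), TAD6 (0.10, 1104 contacts) and TAD7 (0.34, 305 contacts). In TAD3 the 992 longer contacts were at -0.01 and -0.04 in KCs and -0.01 and -0.03 in TCs, and overlapped. Whether the difference in TAD3 depends on distance was not tested.

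GC content of the fragments also differed between TADs, and its part in the levels was not tested. The mean over contacts was 46.8% in TAD7, 43.7% in TAD1 and 43.5% in TAD6, against 39.3% in TAD3 and 40.9% in TAD4. TAD2, where the cell types overlapped, had 39.3% as well, and TAD5 had 41.5%. Across contacts, GC content correlated with the distance-adjusted level at r = 0.16 and 0.12 in KCs and -0.02 and 0.04 in TCs. Split at the median GC content, the difference between cell types in TAD4 was -0.31 in the lower and -0.54 in the upper part, and in TAD1 0.27 in both. In TAD3 it was -0.29 in the lower part and -0.08 in the upper part, where 29 contacts were left and the libraries overlapped. In TAD6 it was 0.22 in the lower and 0.05 in the upper part, and in TAD7 0.65 over 7 contacts and 0.49 over 107. Fragment length correlated with the level at r between -0.04 and 0.11 in the 4 libraries.

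In windows of 200 kb, 23 windows held at least 5 contacts. KC libraries were both above both TC libraries in 8 of these windows and both below in 7, beside 22.4% and 22.9% of single contacts. The windows with KCs above lay in TAD1, in the part of TAD2 next to it, and from the Pogz genes up to the last window, which overlapped. Those with KCs below lay in TAD3, in part of TAD4 and at the start of TAD6. Windows of 64 and 52 contacts in TAD4 overlapped. The difference reached 0.49 in the first window of the locus, which was 0.35 without KC library 1. It reached -0.71 in a window of 15 contacts near the end of TAD3, which was -0.29 without KC library 1.

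**Figure D4:**
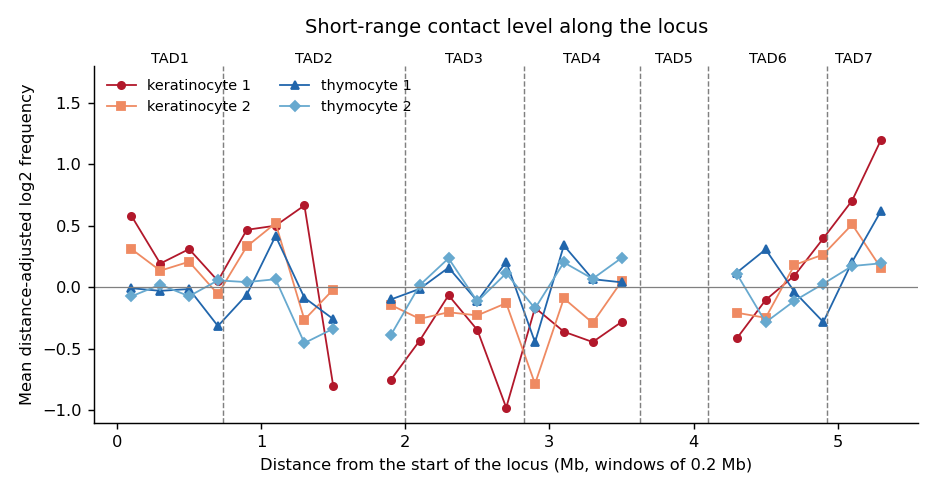
Points give the mean distance-adjusted log2 frequency of short contacts in windows of 200 kb with at least 5 contacts, against the distance from the start of the locus, 1 colour per library, with lines between adjoining windows and dashed lines at the average keratinocyte TAD borders. The keratinocyte points lie above the thymocyte points in most windows of TAD1 and around the border of TAD6 and TAD7, and below them over most of TAD3 and TAD4.

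By gene cluster, 16 of 19 clusters held at least 3 short contacts. KCs were higher without overlap in 5 clusters and lower without overlap in 7. These counts stand beside the 22.4% and 22.9% of single contacts given above. The broadly expressed genes at both ends made up the clusters with most contacts above TCs. The Zfp687 to Setdb1 genes were at 0.74 and 0.46 in KCs and 0.06 and 0.11 in TCs (112 contacts), the Nup210l to Chtop genes at 0.35 and 0.19 against -0.02 and -0.02 (223 contacts), and the Pogz to Pi4kb genes at 0.19 and 0.17 against -0.26 and -0.09 (119 contacts). Their differences were 0.51, 0.29 and 0.36 in the same order, and 0.37, 0.21 and 0.35 without KC library 1. The others of the 5 clusters above TCs rested on 9 and 4 contacts (S100a1 to S100a16, and the Tdpoz region). S100a1 to S100a16 had a difference of 0.60 with and 0.14 without KC library 1.

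Clusters of the EDC itself differed among each other. The Lce1 cluster (92 contacts), which encodes late cornified envelope proteins, was at -0.48 and -0.25 in KCs and -0.01 and -0.10 in TCs. The Sprr2 cluster (25 contacts), which encodes small proline-rich crosslinking precursors, was at 0.07 and -0.33 against 0.09 and 0.26. The Crnn to Hrnr genes (77 contacts), which include filaggrin, the main keratin-bundling protein of the granular layer, were at -0.26 and -0.03 against 0.33 and 0.11. The Rptn to Tchhl1 genes (41 contacts) were at -0.41 and -0.42 against 0.12 and 0.07, a difference of -0.51 with an SD of 0.0084 between the KC libraries (n = 2). Outside the EDC, the Tdrkh to Snx27 genes of TAD6 (55 contacts) were also lower in KCs, at -0.20 and -0.25 against 0.25 and -0.13. Lor to Lelp1, with loricrin, was at -0.62 and -0.77 against -0.21 and -0.40 over 8 contacts. Without KC library 1 the difference was -0.19 instead of -0.31 in the Lce1 cluster and -0.25 instead of -0.36 in the Crnn to Hrnr genes. In the Sprr2 cluster the difference was -0.51 without KC library 1 and -0.11 without KC library 2, instead of -0.31. That of Tdrkh to Snx27 was -0.0935 without TC library 1 and -0.47 without TC library 2, instead of -0.28.

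S100a11 and S100a10 were lower in KCs by the mean but not by the median. S100a10 encodes the partner of annexin A2. The mean of their 7 contacts was -0.18 and 0.05 in KCs and 0.75 and 0.68 in TCs (difference -0.78), while the difference of the medians was 0.30 in the other direction. Clusters that overlapped were the Lce3 cluster (-0.08 and -0.56 against -0.49 and -0.18, 48 contacts), S100a7a to S100a9 (0.26 and 0.57 against 0.19 and 0.29, 22 contacts), Sprr1b to Sprr4 (5 contacts) and Them4 to Lingo4 (5 contacts). The SD over the 16 clusters was 0.44 and 0.43 in KCs and 0.40 and 0.42 in TCs. The libraries did not overlap, but the difference of 0.02 turned to -0.0017 with medians in place of means.

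**Figure D5:**
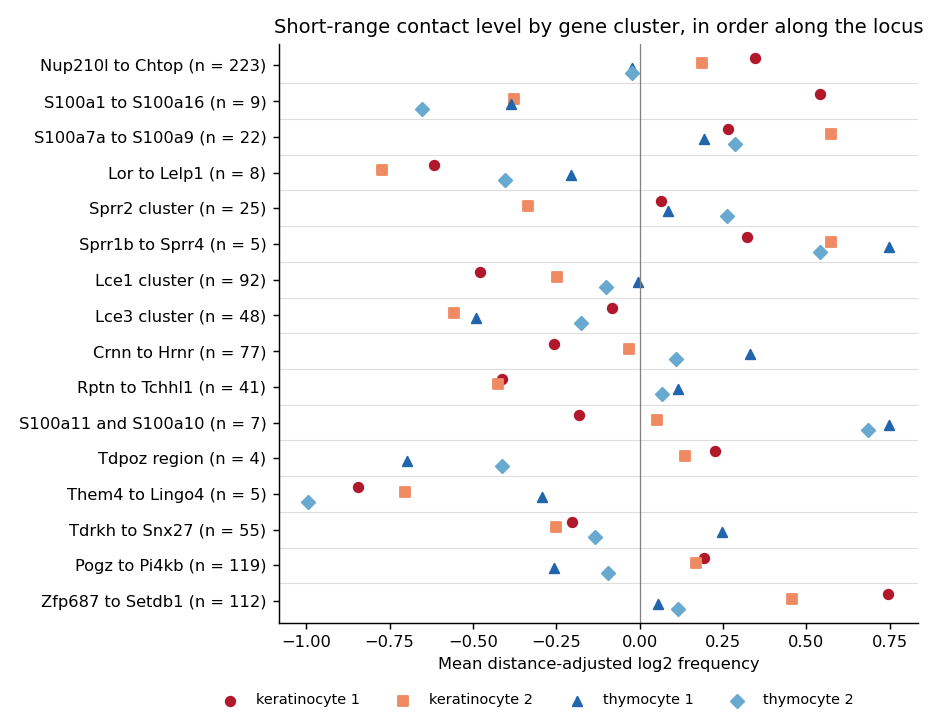
Points give the mean distance-adjusted log2 frequency of the short contacts with both fragments in a gene cluster, 1 point per library, for the 16 clusters with at least 3 contacts in their order along the locus. Keratinocyte points lie right of the thymocyte points in the Zfp687 to Setdb1 and Nup210l to Chtop genes (0.74 and 0.46 against 0.06 and 0.11, and 0.35 and 0.19 against -0.02 and -0.02), and left of them in the Lce1, Crnn to Hrnr and Rptn to Tchhl1 genes.

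Short contacts of single EDC genes were unevenly listed. The 2 fragments over Crnn (chr3:92948709-92953393) had 22 contacts in all 4 libraries, at -0.37 and -0.05 in KCs and 0.45 and 0.37 in TCs after adjustment. The S100a10 fragments (chr3:93359002-93368565) had 15, at 0.20 and 0.35 against 0.33 and 0.93, which overlapped. S100a9, which encodes a subunit of calprotectin, had 12, at 0.25 and 0.35 against 0.46 and 0.33. S100a14 had 9, at 0.81 and 0.30 against 0.25 and -0.14, with a difference of 0.50 that was 0.25 without KC library 1. Loricrin (Lor, chr3:91884197-91887064) and hornerin (Hrnr) had 4 each, involucrin (Ivl, chr3:92374834-92377637) 3 and S100a8 1. The fragment over Flg as placed in the study's gene list (chr3:93081490-93084235) and that over Sprr1a had no contact listed in all 4 libraries. Annotated Flg entries reach from 93077463 to 93097608, and the fragments over the rest were not counted. For Ivl, KC library 1 listed 30 short contacts, KC library 2 and TC library 2 listed 6 each and TC library 1 listed 4, so that the involucrin gene could hardly be compared.

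Contacts with both fragments over protein-coding genes exceeded those with neither by 0.54 and 0.22 log2 units in KCs, and were at -0.07 and -0.06 in TCs (difference 0.44, exact permutation p = 0.33; 0.28 without KC library 1). This gap was measured across the whole locus, and its part within single TADs was not tested. Contacts with a fragment within 10 kb of an enhancer region differed from the others by 0.11 and 0.16 in KCs and by -0.03 and 0.10 in TCs, without overlap (difference 0.10, exact permutation p = 0.33). The paper defined these putative enhancers by histone marks in sorted basal keratinocytes, not in TCs. That difference was 0.0374 without TC library 1 and 0.16 without TC library 2. The 26 contacts placed across an average keratinocyte TAD border exceeded those within TADs by 0.34 and 0.12 in KCs and 0.06 and 0.25 in TCs. The groups overlapped (difference 0.08, exact permutation p = 0.667). Without KC library 1 that difference was -0.03, and without TC library 1 -0.02. The paper states an uncertainty of its border positions that is wider than any short contact. Which short contacts truly cross a border is therefore unknown, and no conclusion is drawn from this comparison.

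Contacts called above the expected frequency at a q-value under 0.05 were counted last. In both KC libraries 44 of 1889 short contacts were called (2.33%), against 1.99% of all contacts listed in both. In both TC libraries 77 of 1625 were called (4.74%), against 4.03% of all. In all 4 libraries 16 of 1337 were called (1.20%), against 0.581% of all. In each library alone, short contacts were called in 7.04% and 7.002% in KCs and in 8.38% and 8.69% in TCs, against 5.99%, 11.4%, 11.7% and 14.5% of all contacts. Over the 1337, 12 (0.898%) were called in both KC libraries but not in both TC libraries, against 1.45% of all contacts listed in all 4, and 49 (3.66%) the other way, against 3.19% of all. Of the 28 called in both KC libraries, 10 lay in TAD1 and 11 in TAD7, and of the 65 called in both TC libraries, 23 lay in TAD1, 17 in TAD4, 12 in TAD6 and 9 in TAD7. Of the 1337 contacts, TAD1 held 349, TAD4 341, TAD6 223 and TAD7 114. TAD4 had 1 called in both KC libraries.

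The 16 contacts called in all 4 libraries comprised 5 of the 147 neighbouring pairs and 11 of the 949 contacts of 10 kb or more. Among the 241 other contacts under 10 kb there were 0. FOR_643 with REV_644 (chr3:91768046-91772043, in the gene-poor TAD2 outside genes) had the highest mean level for its distance, with frequencies of 38249 and 50455 in KCs and 199523 and 256106 in TCs. Its distance-adjusted level was 2.32 and 3.08 in KCs and 2.76 and 2.60 in TCs, and thus overlapped, although limma called the frequency itself lower in KCs (adjusted p = 0.0466). REV_1542 (chr3:94637243-94638404) was called with the fragments on both of its sides, FOR_1541 and FOR_1543, which lie 4.25 and 1.90 kb from Pogz, which encodes a zinc finger protein with a transposase domain. With FOR_1541 it had 27481 and 60352 in KCs and 163932 and 172164 in TCs, and with FOR_1543 25300 and 47851 against 181434 and 192162. FOR_470 with REV_471, also neighbours in TAD2 with no protein-coding gene within 379 kb, had 54634 and 32129 in KCs and 121470 and 209186 in TCs.

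Away from neighbouring fragments, 7 contacts called in all 4 libraries are named, from the 10 whose lowest Z score over the libraries was highest. FOR_1660 in Gabpb2, a subunit of the transcription factor GABP, met REV_1654 in Sema6c, a semaphorin gene, 16 kb away, with frequencies of 6212 and 7091 in KCs and 6589 and 7513 in TCs. The same Sema6c fragment met FOR_1667 of Gabpb2, 34 kb away, at 4214 and 3641 against 4024 and 2276. FOR_14 in Nup210l, a nucleoporin gene, met REV_8 (19 kb) and REV_22 (15 kb) of the same gene on either side, at 5453 and 4480 against 4262 and 5010, and at 4523 and 4054 against 5153 and 5756. FOR_1151 in an intron of S100a10 met REV_1143 near S100a11, 28 kb away, at 5153 and 2280 in KCs and 3054 and 2645 in TCs. FOR_94 over Npr1 met REV_80 over Ints3 and the start site of Slc27a3, 48 kb away, at 3485 and 2104 against 2076 and 2637. FOR_1675 over Prune met REV_1669 over Mllt11, 29 kb away, at 8392 and 2456 against 2779 and 2192, where KC library 1 alone was high. In the other 6 contacts the log2 differences were between -0.35 and 0.37, and the libraries of the cell types overlapped except for FOR_14 with REV_22, which was higher in both TC libraries.

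At the lower end are the 3 contacts with the lowest mean level for their distance, and in each the libraries differed widely. FOR_973 with REV_985, 21 kb apart between the Lce3 and Lce1 genes, was at 1872 and 0.0664 in KCs and 347 and 948 in TCs, so KC library 2 alone was near 0. FOR_973 with REV_977, 4 kb apart, was at 5160 and 232 in KCs and 1570 and 3599 in TCs. Its distance-adjusted level was -0.57 in KC library 1 and between -4.69 and -3.56 in the other libraries. FOR_437 with REV_435, 4 kb apart in TAD2, was at 8163 and 220 in KCs and 6771 and 560 in TCs, so the lowest values were those of the libraries numbered 2.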

How the data were processed

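5C libraries of 2 keratinocyte and 2 thymocyte samples were analysed. The authors aligned reads to the probe sequences with Bowtie (version not given in the sources used here), counted forward-reverse pairs, removed poor probes and extreme single contacts, and corrected each probe with a Loess fit per library, which gave the deposited 5C signal (corrected frequency, mm9). The authors computed a Z score from the expected signal and its SD at each distance, a p-value from a fitted Weibull distribution, and the deposited q-value per library. Correction of each probe can change levels along the locus, and libraries were not scaled to each other, so differences in level depend on the scale and distance-adjusted levels do not.

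From these files, levels were compared over contacts listed in all 4 libraries with two-sided exact permutation tests, and single contacts with limma 3.58.1 (R 4.3.3, trend, Benjamini-Hochberg over 23395 contacts), which was tested on simulated data. Distance-adjusted levels used steps of 5 kb, TADs the average keratinocyte borders, and clusters the span of their genes extended by 5 kb with at least 3 contacts. Members, lists and the division at 10 kb were chosen with earlier results of these data known. Contacts named were the 3 largest limma calls in each direction (without calls, the 3 largest without overlap), the 3 highest and 3 lowest for their distance, and up to 10 called in all 4 libraries. FOR_470 with REV_471 falls under the rule for the highest. Alternatives were other scalings, summaries, distance limits, TAD and q thresholds, single libraries left out and a replicate block. Leaving out neighbouring fragments and taking distance between midpoints were chosen after seeing the data.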

Additional observations from a re-analysis of the deposited data

How the results depend on the processing

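Of 396 alternative values, 357 kept their direction or, for counts of calls, stayed of similar size. Whether the libraries still did not overlap was not part of this count. For example, TAD6 was counted as kept at 0.0089 over the contacts each library lists, against 0.12. The difference in local frequency (-0.39, KCs minus TCs) was 0.68 with libraries scaled to the same total, 0.0827 with medians, 0.0715 for contacts of 5 kb or more, and 0.99 without neighbouring fragments at the same total. From 10 to 50 kb (0.18) it was -0.22 with libraries scaled to the same median, and -0.13 to 0.48 when 1 library was left out. The share of frequency turned from -37.1 to 9.56 percentage points for contacts of 5 kb or more and to 4.13 without neighbouring fragments. The contacts left out stayed in the total. The spread over gene clusters was -0.0017 with medians, Sprr1b to Sprr4 (-0.20) was 0.0423 over the contacts each library lists and 0.0352 over the deposited expected frequency, and S100a11 and S100a10 (-0.78) was 0.30 with medians. Contacts across TAD borders ranged from -0.0327 to 0.184 when 1 library was left out. Calls in both KC libraries numbered 27 at a q-value under 0.01 and 28 over contacts listed in all 4 libraries, against 44. Short contacts called by limma lower in KCs numbered 0 with Z scores (21 at an unadjusted p under 0.05), 0 without the trend (198) and 0 at the same median (357), and 0 to 173 when 1 library was left out; those higher numbered 411 at the same total, and 0 to 10 when 1 library was left out. The cause was not tested. TAD levels kept their direction in 66 of 69 alternatives and cluster levels in 163 of 175. Part of these counts, as of the 357, was fixed in advance. A replicate block leaves a difference of means unchanged. Leaving out 1 library cannot turn its sign where the groups do not overlap. With the replicate number as a block, limma called 172 short contacts lower (12.9%, against 1.03% of all contacts) and 6 higher (0.449%, against 0.906% of all). The other differences could not move, as a balanced block leaves a difference of means as it is. Same-numbered libraries deviated together with r = -0.06 across the short contacts, so the numbers were not taken to pair the libraries.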
